A study of Homo sapiens with 8 samples.

Results

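YTHDF2 binding sites that lie inside the genomic spans of at least 2 protein-coding genes were examined in HEK293T cells, an established human embryonic kidney cell line. The deposited list held 43178 rows at 37613 distinct positions, each a single nucleotide with a strand and a score, and 1740 of these positions lay in overlapping protein-coding genes (4.63%, exact binomial 95% interval 4.42 to 4.84%). The interval covers counting error only, since sites of 1 gene are not independent. Positions were chosen by their location alone, with readthrough genes (annotated fusions of neighbouring genes) left out. Of the rest, 35761 positions lay in 1 protein-coding gene and 112 in none.

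YTHDF2 was mapped by iCLIP2, in which protein is crosslinked to RNA with ultraviolet light in living cells and the protein-bound RNA fragments are sequenced. The cells were wild type and formed 2 groups of 4 libraries, 1 treated for 12 h with 20 µM STM2457, an inhibitor of the m6A methyltransferase METTL3, in 0.2% DMSO, and the other with 0.2% DMSO alone for the same time. Labels do not say whether the replicates came from separate cultures. Both groups share 1 list with no value for a single library, so the depth per library and the spread between replicates are unknown and STM2457 could not be set against DMSO. Every number below is a description of that list, without a test between conditions.

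N6-methyladenosine (m6A) is a methylated adenosine of messenger RNA, placed mainly in short sequences with an adenosine before a cytosine. YTHDF2 is a cytoplasmic reader protein that binds m6A and brings bound mRNAs to the CCR4-NOT deadenylase for decay. Where genes overlap on a chromosome, the position of a site alone does not tell which transcript was bound. Because iCLIP2 reads keep the strand of the RNA, genes on opposite strands can be told apart, whereas genes on the same strand cannot.

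Sequence was at hand for those positions that fell in RefSeq windows of 300 nt around gene starts (GRCh38.p14), which took in 21 of the 1740 positions in overlapping genes and 229 others. The sequences below show the base at the site and how strand picks the reading. Each has 29 nt, is written 5′ to 3′ on the strand of the site as DNA, and has the listed position at base 15, the A before the last C of the capitals. Capitals mark the 4-letter motif around that base.
ZNF146 site on the plus strand, inside ZNF565 (chr19:36235891-36235919): agaatcatcaagGGACttagttgggagct
ZNF146, a second site (chr19:36235847-36235875): gaaacacaacctGGACtgaaatcatgagg
ATP5PF on the minus strand, head to head with GABPA (chr21:25735184-25735212): ggaggggagcttGAACtaggggaaaggcc
ATP5PF, a second site (chr21:25735213-25735241): gataaccctaacGAACaggacgctgactc
TBL3 on the plus strand, at the nested gene NOXO1 (chr16:1981453-1981481): tggaggcgtgcaAGACtgaagaaggggcg
JMJD4 on the minus strand, inside SNAP47 (chr1:227735004-227735032): accacctgctacGGACctacggtggggcg
TAF6L on the plus strand, inside TMEM223 (chr11:62787257-62787285): gtgggcgctctcGGACtactcgctgtact
UQCRQ on the plus strand, head to head with GDF9 (chr5:132866630-132866658): gccggaaatgacGAACgagtcaaccggat
ITGA1 and PELO, both on the plus strand (chr5:52800941-52800969): gagcggttctatGAACaggtggtccaggc

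All 21 positions in overlapping genes were an A read on their own strand, and each A was the third letter of 1 of 6 motifs searched, read as DNA: GGAC and likewise GAAC, those with A first, namely AGAC and also AAAC, and those with T first, namely TGAC and also TAAC. The motif was GGAC at 8 positions, GAAC at 5, AGAC at 5 and AAAC at 3, with none at TGAC or TAAC. The 229 other positions with sequence also had 1 of the motifs at the same place, with GGAC at 83, GAAC at 49, AGAC at 30, TGAC at 27, AAAC at 26 and TAAC at 14. For comparison, 1 fixed place before the gene start was read on both strands in all 34943 windows. The A of 1 of these motifs stood at 1.89% of these 69886 places. Of the 29-nt stretches around them, 39.3% held 1 of the motifs on the strand read at any place. That fixed place lies outside the transcript that begins at the gene start, so these are not rates in bound RNA. The motifs exclude each other at a fixed place. The labels do not say whether the authors placed the listed positions on such motifs.

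Shared spans held more sites per genomic length than the spans of single genes. Spans shared by at least 2 protein-coding genes made up 19.6 Mb of the 1261 Mb within protein-coding genes (1.55%), introns included. They held 88.8 positions per Mb, against 28.8 positions per Mb in the spans of single genes. The share of exons in each kind of span was not used here, so this ratio is one of genomic length and not of transcript length.

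The 1740 positions fell in 480 loci and 506 sets of genes, counting 1005 genes in all. They covered 2 genes at 1727 positions, 3 genes at 12 and 18 genes at 1, and were split into 899 on the plus strand and 841 on the minus strand. Most sets held few sites. The median was 2, and 190 sets held 1, whereas the 115 sets with at least 5 held 983 positions. Chromosome 22 had the highest share of its positions in overlapping genes (106 of 1110, 9.55%), followed by chromosomes 16 (142, 7.33%) and 11 (129, 6.99%), and chromosome 13 the lowest (13 of 754, 1.72%).

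Strand assigned 1126 of the 1740 positions to exactly 1 gene (64.7%, 62.4 to 67.0%). Another 303 positions (17.4%) had at least 2 genes on their own strand, and 311 (17.9%) lay in a set with a gene whose strand is not known here. Of these 311, 92 were against the strand of the known genes. Strand excluded those genes there, although the positions were not counted as resolved. Gene strands came from the RefSeq windows for 845 of the 1005 genes and from the majority of sites in the gene alone for 55, which left 105 without a strand. A single such site was enough. With annotated strands only, 1011 positions were resolved, and with at least 5 such sites required, 1030. The resolved positions belonged to 369 genes. For 211 of these genes, with 724 positions, every site in the list lay in a shared span.

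Sites rarely lay against the known strand of their gene. The labels do not say whether the list was limited to sites on the strand of annotated genes, and this was not tested. At 296 positions every overlapping gene had a known strand, annotated or taken from sites in the gene alone, and all were on the same one. Of these 296 positions, 296 were on that strand. At 284 other positions a gene of unknown strand lay beside genes known to share 1 strand, and 92 of these were against it. In single genes, 30 of 30072 positions (0.0998%, 0.0673 to 0.142%) were on the strand opposite to the annotated one, in 17 genes. Of these, 11 were within 5000 nt past the 3′ end of a gene upstream on the same strand. KIF7, a kinesin of Hedgehog signalling, had 5 such positions, 1621 to 2742 nt past the annotated end of TICRR. TICRR overlaps KIF7 tail to tail and is described below.

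**Figure D1:**
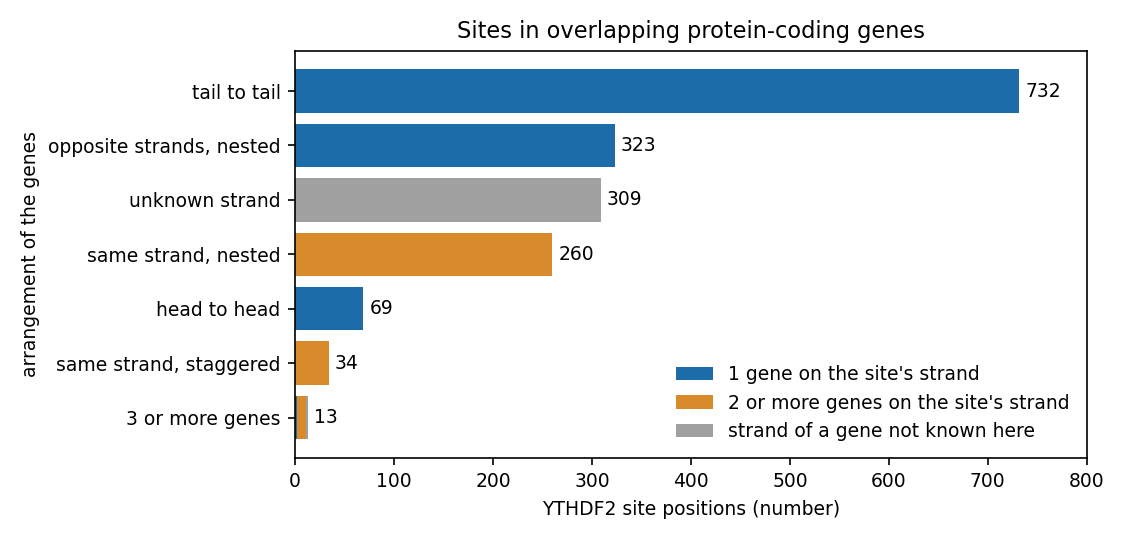
Number of YTHDF2 site positions (x axis) by the arrangement of the overlapping genes (y axis), with colour for what strand resolves. Tail-to-tail pairs held 732 positions and opposite-strand nested pairs 323, all with 1 gene on the strand of the site, whereas same-strand nested pairs held 260 that strand left with both genes.

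Genes that converge and overlap at their 3′ ends, called tail to tail, held 732 of the 1740 positions (42.1%) in 234 pairs. Nested genes on opposite strands held 323 positions (18.6%) in 73 pairs and nested genes on the same strand 260 (14.9%) in 45 pairs. Genes that diverge and overlap at their 5′ ends, called head to head, held 69 positions (3.97%) in 40 pairs. Staggered genes on the same strand held 34 in 14 pairs, sets with a gene of unknown strand 309, and sets of at least 3 genes 13. Of the pairs in the gene table, sites were found in 30.7% of 763 tail-to-tail pairs and 23.0% of 317 opposite-strand nested pairs. The share was 12.6% of 111 staggered pairs, 11.6% of 808 pairs with an unknown strand, 9.57% of 470 same-strand nested pairs and 8.30% of 482 head-to-head pairs. A pair counted only where a position lay in exactly its 2 genes. Pairs that overlap only under at least 3 genes stayed in the totals but could not count, so the shares are not on an equal footing. A gene without an annotated strand got one only where the list held sites in that gene alone. Sites thus partly set the kind of a pair. With annotated strands only, 648 positions were tail to tail. Overlap length was summed over all pairs of a kind, so a stretch under several genes counted once for each pair. Per kb of this sum, tail-to-tail pairs held 0.140 positions and staggered genes on the same strand 0.0815. Opposite-strand nested pairs held 0.0682, head-to-head pairs 0.0399 and same-strand nested pairs 0.00779. For same-strand nested pairs the sum was 33383 kb, more than the 19.6 Mb of all shared span. The values per kb are therefore not densities in distinct sequence, and their order is not a ranking of such densities.

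Longer tail-to-tail overlaps held a site more often. Sites were found in 16 of 235 pairs that overlapped by less than 500 nt (6.81%), 14 of 66 from 500 to under 1000 nt (21.2%), 34 of 98 from 1000 to under 2000 nt (34.7%), 63 of 140 from 2000 to under 5000 nt (45.0%) and 107 of 224 at 5000 nt or more (47.8%). Per kb of overlap summed over pairs, the order ran the other way at the ends of this range. The shortest overlaps held 0.696 positions and the longest 0.0887. The pairs with sites overlapped by a median of 4386 nt, against 1720 nt for all 763 pairs.

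Of the sites assigned to 1 of the 1523 genes in tail-to-tail pairs, 732 of 3569 lay in the shared span (20.5%, 19.2 to 21.9%), which made up 10.6% of the genomic length of these genes. Within 1000 nt of the 3′ end of their own gene lay 259 of the 732 positions (35.4%, 31.9 to 39.0%), against 5857 of 35731 positions in single genes (16.4%). The median distance to that end was 1688.5 nt (quartiles 677 and 3205), against 4217 nt (1625 and 16697) in single genes. A tail-to-tail overlap lies at the gene's end by its definition, so the shorter distance comes in part with the choice of positions.

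**Figure D2:**
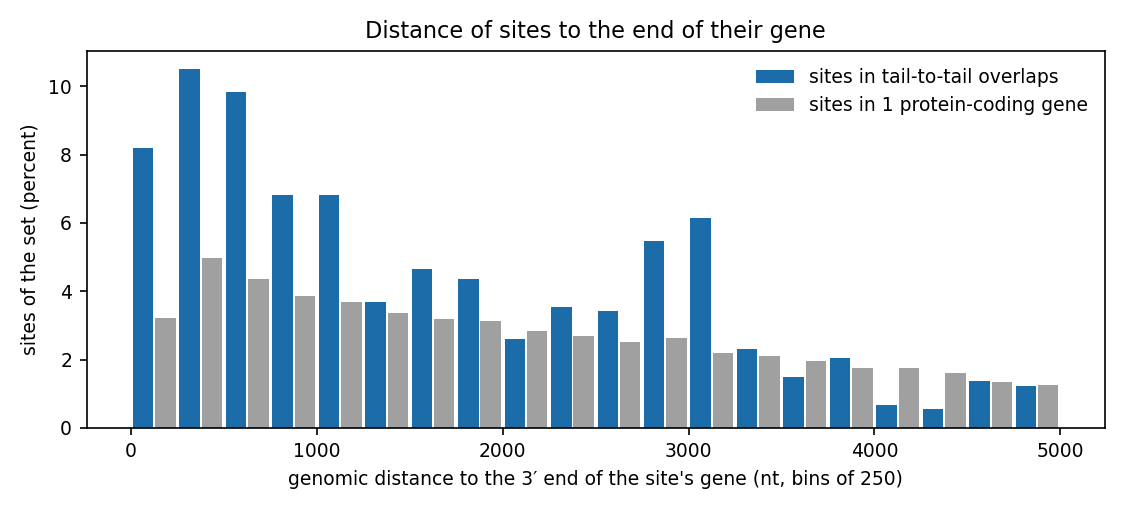
Share of sites (y axis, percent of each set) by genomic distance to the 3′ end of their gene (x axis, nt, bins of 250), for 732 positions in tail-to-tail overlaps and 35731 positions in 1 protein-coding gene. The tail-to-tail sites stand above the others in each bin of the first 2000 nt, and a second group of high bins from 2750 to 3249 nt holds 85 sites of 33 genes.

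The 85 positions between 2750 and 3249 nt from the end belonged to 33 genes, led by CABLES1 and ANKRD28 with 7 each and SRRD and CSRNP2 with 6 each. These genes and their number were read off after the distribution was seen.

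Of the 234 tail-to-tail pairs, 92 held a single position. Among the 142 pairs with at least 2, the positions belonged to 1 gene in 120 and to both genes in 22. ZBED4, a BED-type zinc finger gene, had the most positions. All 22 positions it shared with ALG12, a mannosyltransferase gene of N-glycan synthesis, were on the plus strand of ZBED4, from chr22:49883629 to chr22:49889964. Scores in ZBED4 ranged from 0.694 to 182, with 182 at 49885502, 119 at 49886764 and 70.2 at 49884114. The high scores were spread over the cluster between low ones, with the 0.694 at 49884849.

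TICRR, which encodes the replication initiation factor treslin, took all 14 positions it shared with KIF7, from chr15:89623893 to chr15:89627524, the highest at 75.9. GNA12, a G-protein alpha subunit gene, took 13 of 13 positions shared with the metallopeptidase gene AMZ1. Some of the highest scores in overlapping genes were resolved in the same way. At chr3:128070117 a score of 299 belonged to SEC61A1, the channel subunit of the endoplasmic reticulum translocon, and not to RUVBL1. This SEC61A1 position is on 2 rows of the list, and the other row gives 23.6. At chr2:10784100 a score of 299 belonged to PDIA6, a protein disulfide isomerase gene, and not to ATP6V1C2. At chr7:6023507 a score of 216, with 56.8 on a second row, belonged to AIMP2, a scaffold of the multi-tRNA synthetase complex, and not to EIF2AK1, the haem-regulated kinase.

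Both strands carried sites in 26 gene sets with 161 positions, 22 of them tail to tail and 4 with an unknown strand. The nearest positions on opposite strands were a median of 112.5 nt apart (7 to 14838 nt) and within 100 nt in 13 sets. Here position without strand would have joined the sites of 2 transcripts.

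HYLS1, a gene of centriole function, and PUS3, a tRNA pseudouridine synthase gene, kept apart within a shared span of 7162 nt. PUS3 had 9 positions from chr11:125893653 to chr11:125896172, with scores from 2.11 to 33.7. HYLS1 had 5 from chr11:125899609 to chr11:125900039, with scores from 0.455 to 8.97. A gap of 3437 nt separated the genes' sites, and each cluster lay toward the end of its own gene.

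ZNF276, a zinc finger gene, and FANCA, a Fanconi anaemia core complex gene, mixed their sites. ZNF276 had 12 positions from chr16:89738049 to chr16:89740654, with a highest score of 38.2. FANCA had 4, at chr16:89737968, 89738121, 89738419 and 89738460, with scores of 10.3, 12.3, 10.0 and 3.61. The FANCA sites all lay in the 911 nt next to the end of FANCA, whereas the ZNF276 sites ran along most of the span.

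SRRD and TFIP11, a gene of spliceosome disassembly, interleaved most closely among the 5 pairs with the most sites on the less used strand. SRRD had 9 positions from chr22:26491474 to chr22:26492547, with a score of 117 at 26491723 and 1.85 to 27.9 at the other 8. TFIP11 had 4, with scores of 17.1 at 26491984, 27.5 at 26492012, 35.0 at 26492203 and 37.0 at 26492212. The SRRD position 26492001 and the TFIP11 position 26492012 were 11 nt apart.

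CENPO, a kinetochore gene, had 11 positions and ADCY3, an adenylyl cyclase gene, 3 in their shared span on chromosome 2. The CENPO score was 76.6 at 24819797 and the ADCY3 score 5.12 at 24819832, 35 nt away. C19orf44 had 3 positions with scores from 6.15 to 6.33, and CHERP, an endoplasmic reticulum calcium homeostasis gene, had 6 with scores from 6.74 to 35.3, at least 1628 nt away. The closest opposite positions of all were 7 nt apart, at 129635492 (NTMT1, 10.8) and 129635499 (ASB6, 0.248) on chromosome 9. NTMT1 encodes a methyltransferase of protein N termini.

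**Figure D3:**
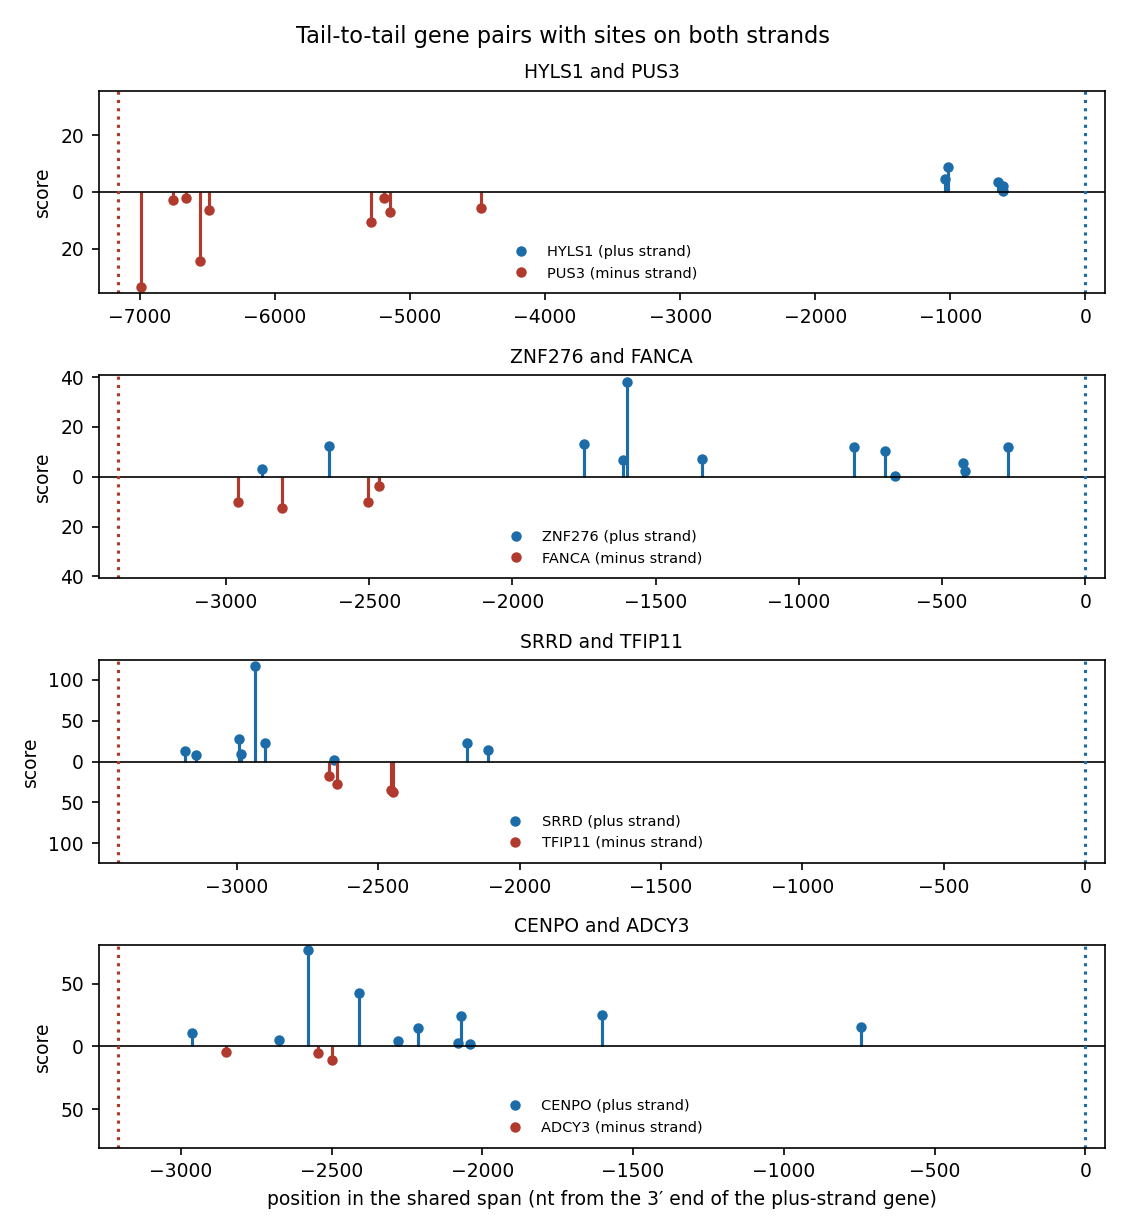
Scores of sites (y axis, plus-strand gene upward and minus-strand gene downward, both positive) along the shared span of 4 tail-to-tail pairs (x axis, nt from the 3′ end of the plus-strand gene; dotted lines mark the ends of both genes). HYLS1 and PUS3 sites form separate clusters 3437 nt apart, whereas sites of ZNF276 and FANCA, SRRD and TFIP11, and CENPO and ADCY3 alternate between strands.

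Within the span of a gene nested on the opposite strand of a larger host, nearly all sites were on the strand of the nested gene. Of 323 positions, 316 were so placed (97.8%, 95.6 to 99.1%), and in 70 of 73 pairs all were. The nested genes had a median length of 6.42 kb and their hosts 70.2 kb. Some hosts also had sites on their own strand outside the nested gene. They held 188 positions on their strand outside the nested genes, and in 21 of the 73 pairs these outnumbered the positions inside the nested gene. In 33 pairs, with 159 positions, the list held no position on either strand elsewhere in the host's span.

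ERCC6L, which encodes the anaphase bridge helicase PICH, had 20 positions inside PIN4, a prolyl isomerase gene, from X:72204980 to X:72208621, the highest at 143.6. ZNF146 had 15 inside ZNF565, both zinc finger genes, with scores up to 131. TRIM32, a ubiquitin ligase gene, had 13 inside ASTN2, a neuronal membrane protein gene of 992 kb, with scores up to 73.9. CSTF2T, a gene of 4.11 kb for a cleavage stimulation factor subunit, had 11 inside PRKG1, a cGMP-dependent kinase gene of 1307 kb, with scores up to 123. In these 4 pairs no position inside the nested gene was on the strand of the host, as in 70 of the 73 pairs. Outside ZNF146, ZNF565 had 2 sites on its own strand.

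TSPYL1 had 11 positions inside DSE, the dermatan sulfate epimerase gene, with a median score of 69.5. Its scores were 245 at chr6:116278210, 226 at 116278898, 192 at 116279112, 187 at 116278517 and 109 at 116279117, and 7.21 to 69.5 at the other 6. DSE kept 14 sites of its own outside TSPYL1. THAP11, a zinc finger gene, had 12 inside the kinetochore gene CENPT with scores up to 170, and GPX8, an endoplasmic reticulum peroxidase gene, had 10 inside CDC20B with scores up to 187.

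WTAP, a subunit of the m6A methyltransferase complex itself, had 11 positions in the span of SOD2, the mitochondrial superoxide dismutase gene. They ran from chr6:159743702 to chr6:159755543, with a median score of 26.5. The scores were 180 at 159748340, 64.1 at 159748910, 63.3 at 159755226 and 42.0 at 159748849, and 2.56 to 34.7 at the other 7. All were on the plus strand of WTAP, and SOD2 had 1 site outside.

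The 7 positions on the host's strand came from 3 pairs, in which no site was on the strand of the nested gene. In the pair ESS2 and TSSK2, a splicing-related gene and a testis-specific kinase gene, ESS2 had 3, at chr22:19131476, 19131505 and 19131700, with scores of 26.4, 24.0 and 4.72. TBL3, a gene of ribosome biogenesis, had 3 across NOXO1, an NADPH oxidase organizer gene, with scores of 1.49, 0.738 and 19.7, the last being the TBL3 sequence printed above. CYREN, a regulator of DNA end joining, had 1 across TMEM140, at chr7:135166036 with a score of 97.5.

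**Figure D4:**
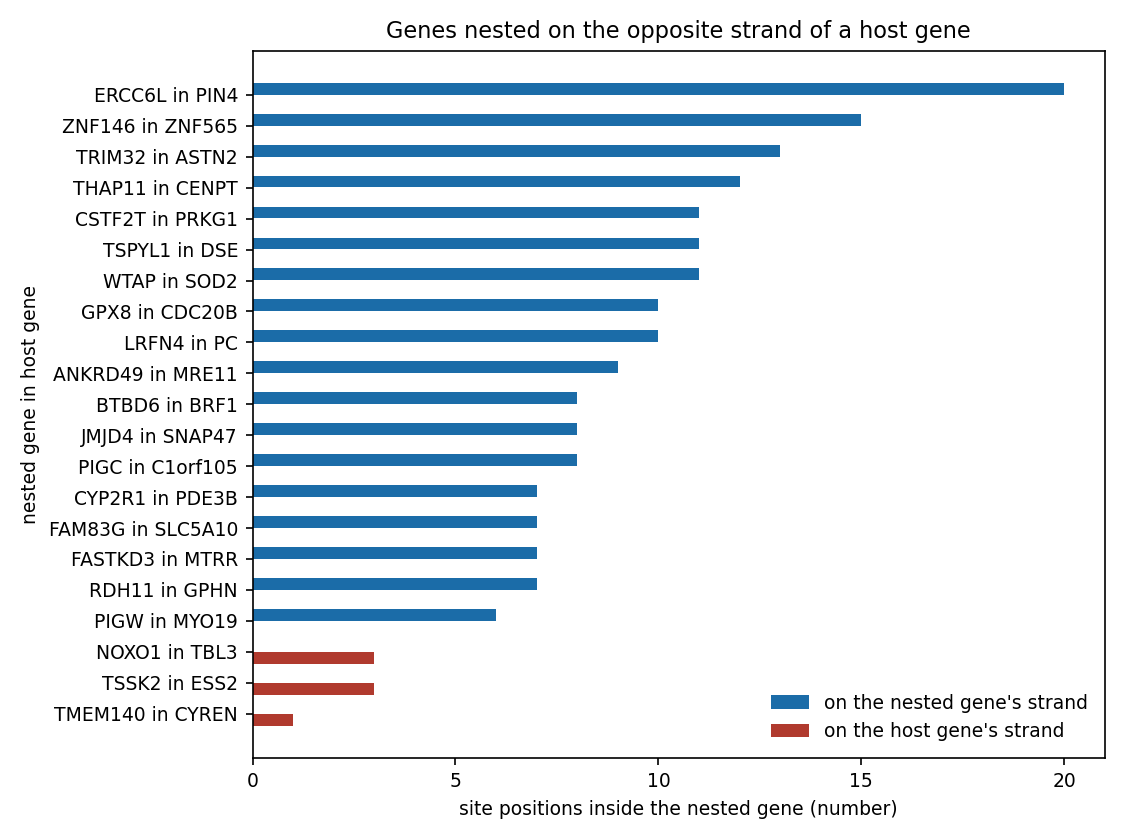
Number of site positions inside a nested gene (x axis) for 21 pairs of a nested and a host gene on opposite strands (y axis), coloured by the strand they were on: the 18 pairs with the most positions and the 3 pairs with positions on the host's strand. The first 18 pairs have sites on the nested gene's strand alone, from 20 in ERCC6L to 6 in PIGW. RTL5 in NHSL2 and SS18L2 in SEC22C also had 6 and are not drawn.

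Head-to-head overlaps held 69 positions, of which 43 were within 1000 nt of the start of their own gene (62.3%, 49.8 to 73.7%), against 1886 of 35731 in single genes (5.28%). The overlap lies at the gene starts by definition. WDCP took 13 of the 69, all in its overlap with FKBP1B, an immunophilin gene, with scores up to 121. ATP5PF, a subunit of the mitochondrial ATP synthase, had 3 in its overlap with GABPA, a transcription factor gene, with scores of 64.8, 33.1 and 34.9. The sequences of 2 of these are printed above.

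Genes nested on the same strand were not separated by strand. Of the 45 pairs with 260 positions, 4 pairs with 46 positions had the same span for both genes. In 14 of the other 41 pairs, with 60 positions, the list held no position elsewhere in the host's span, and in 27 it held at least 1. ZC3H11A and ZBED6, zinc finger genes with equal spans, shared 20 positions in groups of 13, from chr1:203796430 to chr1:203800068, and of 7, from chr1:203847528 to chr1:203853800. CHML, a Rab escort protein gene, shared 18 with the opsin gene OPN3, in a locus with KMO that held 20. RTL10 and GNB1L shared 16, with no strand to choose between them.

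RBM12, an RNA-binding protein gene, and CPNE1, a copine gene, shared 17 positions on the minus strand of chromosome 20 with a median score of 41.5. The highest were 307 at 35653928, which a second row gives as 37.8, then 294 at 35655071, 145 at 35654183 and 142 at 35654517. The lowest was 1.25 at 35655115, which lay 44 nt from the 294.

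RSC1A1, a regulator of solute carriers, shared 16 with DDI2, an aspartic protease gene, with scores up to 63.4, and DDI2 had 7 sites outside. H2AX, the histone variant gene of the DNA damage response, shared 8 with DPAGT1, which encodes the enzyme that starts N-glycan synthesis. From chr11:119093993 to chr11:119094665 their scores were 146, 146, 251, 134, 103, 4.05, 4.68 and 5.62. The 5 high values were all on 1 side of this run. RPP14, an RNase P subunit gene, and HTD2, a mitochondrial fatty acid dehydratase gene, shared 9, with a score of 226 at chr3:58317883.

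Sets with a gene of unknown strand were counted as unresolved, also where a position lay against the strand of the known gene. At the 92 positions of this kind, strand excluded the known genes. Of the overlapping protein-coding genes, only those of unknown strand were left. In the spans of both HASPIN, the histone kinase gene, and ITGAE, an integrin gene, lay 14 positions on the plus strand, with scores up to 139. ITGAE was on the minus strand and HASPIN had no strand here, so strand excluded ITGAE and left only HASPIN of the pair. RSPH14 shared 8 positions with GNAZ and 6 with RAB36. The 8 in GNAZ were on the plus strand and RSPH14 is on the minus strand, which left only GNAZ for these 8. The highest score in any overlapping gene, 389, was at chr7:27141243 on the minus strand in the spans of HOXA3 and HOXA5, homeobox genes of body patterning. STUB1, a ubiquitin ligase gene, and JMJD8 had 3 positions on each strand. The scores were 43.8 at 682608 on the plus strand and 72.1 at 682596 on the minus strand of chromosome 16, 12 nt apart.

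In 6 loci the positions linked 4 or more genes. The clustered gamma protocadherins, cell adhesion genes that share their last exons, gave the most genes for 1 site. The position chr5:141421832, with a score of 6.50, lay in 18 genes, 91318 nt past the start of PCDHGA1 and 781 nt past the start of PCDHGA11. All 18 are on the plus strand, so strand did not choose between them. Of 53 clustered protocadherins in the gene table, 37 overlapped another gene, and these 18 lay over a site.

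On chromosome 14, GPHN, PALS1, EIF2S1, PIGH, ARG2, VTI1B and RDH11 were linked by 17 positions. Of these, 7 were resolved to the retinol dehydrogenase gene RDH11 and 3 to VTI1B, a SNARE gene. CHTF8, DERPC, HAS3 and TANGO6 were linked by 14. C11orf98, CSKMT, LBHD1 and UQCC3 were linked by 8, of which 4 were resolved to UQCC3, an assembly factor of the respiratory chain. HOXA3, HOXA4, HOXA5 and HOXA6 were linked by 7, and GOSR2, LRRC37A2, NSF and RPRML by 5.

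Over all 19928 protein-coding genes, 1005 lay over a site in a shared span (5.04%). Of 18 genes of the m6A machinery, 4 overlapped another gene, and 2 carried sites there. Besides WTAP, RBM15B, an adaptor of the methyltransferase complex, had 2 positions shared with DCAF1, with scores of 7.80 and 2.98 at chr3:51397215 and chr3:51397843. Of 35 mRNA decay genes, 6 overlapped another and 1 carried sites. CNOT1, the scaffold of the CCR4-NOT complex, had 2, with scores of 2.92 and 11.3 at chr16:58520764 and chr16:58520897, in the span of SETD6. Strand resolved these 15 positions to the named gene. All 9 UGT1A genes overlapped another gene, as did 3 of 9 genes of classic imprinted loci. In shared spans, 0 positions lay in genes of either list. Positions that lay in 1 of these genes alone were not counted here. The share of all protein-coding genes that overlap another is not given here, so the overlap counts of the lists have no background. A site missing from the list does not show that a transcript was unbound, since the calling rule and the depth are not known.

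Scores of sites in overlapping genes were close to those of other sites. The median was 8.83 (95% interval 8.08 to 9.32, quartiles 3.97 and 21.7) in overlapping genes and 8.67 (8.53 to 8.81, quartiles 3.75 and 20.8) in single genes. By arrangement the median ran from 6.50 head to head to 11.6 in same-strand nested genes. Positions with at least 2 genes on their strand had a median of 11.5 (10.1 to 13.5) and resolved positions 8.40 (7.73 to 9.15). These intervals take positions as independent, which sites of 1 gene are not, and no test was made. Of the positions in overlapping genes 29.8% had another within 50 nt on the same strand, and of those in single genes 29.7%.

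**Figure D5:**
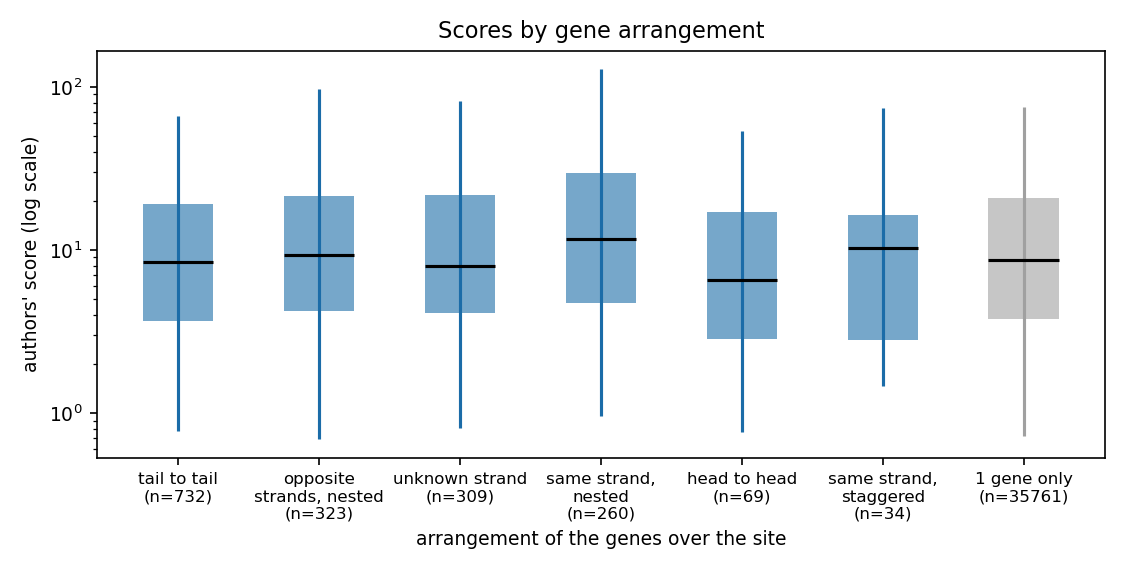
Authors' scores (y axis, log scale) by the arrangement of the genes over the site (x axis), with the median as a black line, the quartiles as a box and the 5th to 95th percentile as a vertical line. Medians lie between 6.50 and 11.6 in overlapping genes, on both sides of the 8.67 of positions in 1 gene, and the boxes overlap throughout.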

How the data were processed

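The authors deposited 1 list of YTHDF2 sites with a score per row, used to rank and describe sites. Its scale and normalization, the site caller and the way the 4 STM2457 and 4 DMSO libraries were combined are not stated in the labels. GRCh38.p12 is the build in the submitters' processing notes, which also list bedtools 2.27.1, UMI-tools 1.0.0, STAR 2.7.3a and FastQC 0.11.8 without saying what each did.

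A position given by 2 rows was counted once, at its higher score. Spans of 19928 protein-coding genes came from a RefSeq table (GRCh38.p14, whose main chromosomes equal those of the list's build). Left out were 109 readthrough genes, recognised by a hyphenated symbol made of 2 other gene names. Strand came from RefSeq windows of 250 nt before to 50 nt after gene starts, and otherwise from the majority of sites in the gene alone. Exons, introns and untranslated regions were not used here. Intervals are exact binomial for shares and from order statistics for medians. Python 3.11.15, pandas 2.3.3, numpy 2.4.6, scipy 1.17.1 and matplotlib 3.10.9 were used.

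Named were the 12 loci with the most positions, the 10 pairs with the most resolved, the 5 pairs with the most on the less used strand, the 10 highest scores, all loci of 4 or more genes, and loci with genes of 5 lists (clustered protocadherins, UGT1A, m6A machinery, mRNA decay, imprinted loci). The 10 pairs were cut within a tie at 13 resolved positions. ZBTB33, which took 13 of 13 positions shared with TMEM255A, stood in that tie and is not described above. Other genes named were chosen after their values were seen. Positions and lists were chosen with earlier results of these data known.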

Additional observations from a re-analysis of the deposited data

How the results depend on the processing

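Of 47 alternatives, 38 left the result within its limit and 9 moved it. The limit was a ratio of 1.5 for counts. For the median score and the share on the nested gene's strand it was the 95% interval. Sites at or above the median score alone were 18808 of the 37613 positions, so counts fall by the choice itself. Of these, 876 positions lay in overlapping genes, 531 were resolved and 345 were not, and 340 were tail to tail. These lower counts do not show that the results depend on the score. With strand from the majority of sites alone, 200 were resolved, 1540 were not, and 185 were tail to tail, since genes bound only in shared spans then have no strand. With readthrough genes kept, 975 were unresolved, against 614 without. With the lower score where a position is on 2 rows, the median score was 7.23. No paired analysis was possible because the list has no value per library, and leaving out each replicate in turn could not be run for the same reason. The 105 genes without a strand, the unknown depth and the unknown calling rule limit all counts.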
